A study of Mus musculus with 12 samples.

Results

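Frontal cortex of Grin1 knockdown mice was compared with frontal cortex of wild-type mice across all gene models that the authors' differential expression program, Cuffdiff, could test. Models with the status OK in the deposited table were kept, 18417 of 30995. A further 12573 had too little signal for a test and 5 failed. Each group held 4 male mice, 14 weeks old, F1 hybrids of C57Bl/6 and 129/SvlmJ, and 4 more mice of the series, a Cre rescue group, do not enter this comparison. Every animal of both groups had tamoxifen, which activates inducible Cre beginning at 10 weeks: 6 mg came by gavage and about 14 mg with the chow. The labels call the groups WT and GluN1; how the knockdown allele lowers Grin1 is not given in the sources used here. The table holds 1 FPKM value per group (fragments scaled to transcript length and library size), which the authors pooled over its libraries. No value per animal is given, so no spread between animals can be shown, depth is unknown, and the only test is the authors' own. A model is said here to have risen or fallen in the knockdown when it was called, that is when p was under 0.05 and q under 0.10 in the authors' deposited table. All folds are log2 of the knockdown over the wild-type FPKM.

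NMDA receptors are glutamate-gated cation channels made of GluN1, which Grin1 encodes and every such receptor contains, together with GluN2 or GluN3 subunits. They pass calcium when glutamate release coincides with depolarisation, and calcium then acts through calmodulin, CaM kinases and the Ras-MAP kinase route on synapses and on transcription in the nucleus. In cortex the receptors sit on pyramidal cells and on inhibitory interneurons, and mice with low Grin1 are used as a model of reduced NMDA receptor function.

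By this rule 464 models were called, 2.52% of those tested, and the significance column of the authors' deposited table marks 358 of them, those with q under 0.05. In the knockdown 306 were higher (1.66% of tested models) and 158 lower (0.858%), and 202 of the 464 shared the smallest q of 0.00456 in the authors' deposited table. The list counts below are to be read beside the shares of 1.66% and 0.858%. At an unadjusted p under 0.05 alone, Cuffdiff gave 1457 models, 7.91%, and for a list with 0 calls that count is given beside it. Called rises had a median log2 fold of 0.57 and called falls of -0.41. Over all tested models the median log2 fold was -0.0033, and 48.8% of folds were positive. A change of at least 2-fold was seen in 60 called rises and 12 called falls, and 3 more called falls, left out of that count and of the median, were listed at 0 in the knockdown. Another 178 models differed by 2-fold or more without a call, at a median mean level of 0.275 FPKM. By level, 70 rises and 23 falls lay below 1 FPKM, 160 and 57 between 1 and 10, 63 and 73 between 10 and 100, and 13 and 5 at 100 FPKM or above. Falls therefore outnumbered rises only in the range of 10 to 100 FPKM. Among the called genes named in the text, those with q of 0.05 or more were Pcsk1, Gad2, Slc6a13, Dlx1, Crem, Nmb,Sec11a, Chrm2, Hcn4, Pde1c, Sema3c, Cdh20 and Hba-a1,Hba-a2 on the side of the rises and Ntf3, Sstr1, Adrb1, Ppp1r1b, Opalin, Kcnab1, Kcnk2, Kcnmb4, Ngb and Tfrc on that of the falls. The smallest called fold was 0.24 in size on the log2 scale. At the edge of the threshold, Clec18a and Eya2 were among the last models inside (q of 0.0975 and 0.0992 in the authors' deposited table), and Igj, Dnahc6 and Pitpnm3 the first outside (q of 0.1008, 0.1008 and 0.102 in the authors' deposited table).

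**Figure D1:**
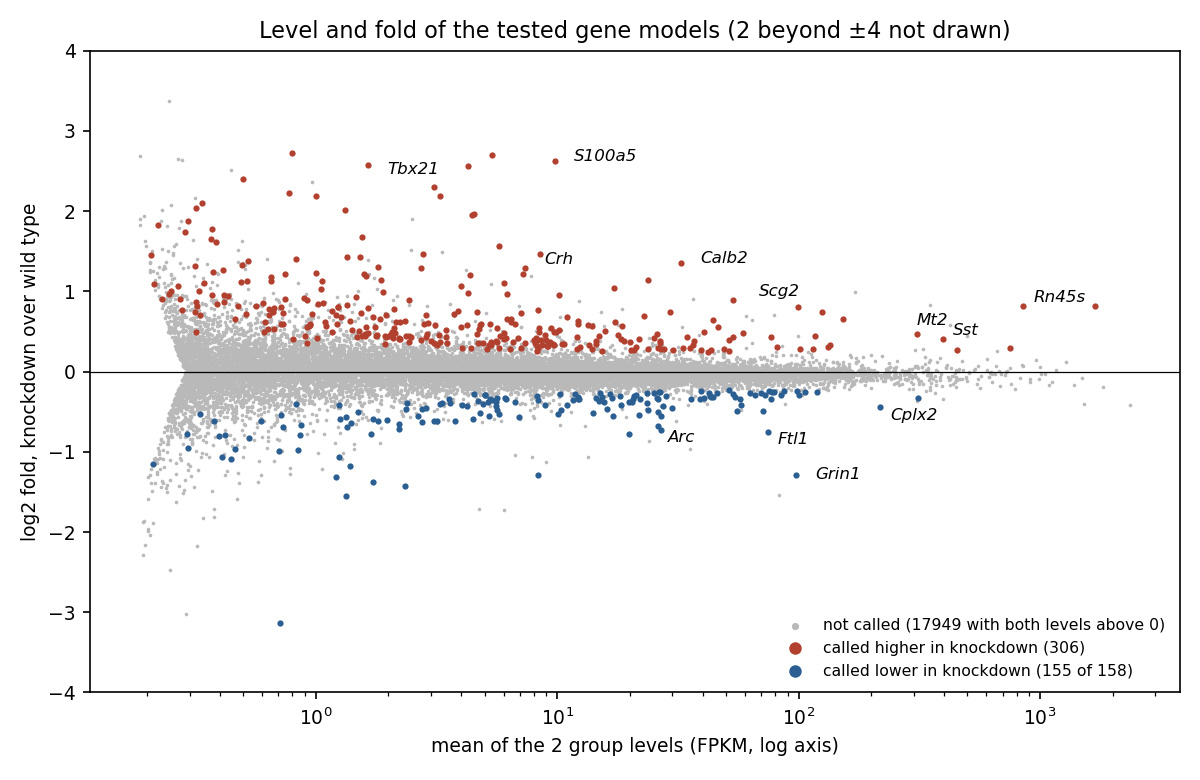
Mean of both group levels (FPKM, log axis) against the log2 fold of knockdown over wild type for the tested models, with called models coloured; 2 models beyond a log2 fold of 4 in size and those listed at 0 in a group are not drawn. Called rises spread to log2 folds above 2 at low and middle levels, while Grin1 is the lowest named point near 100 FPKM.

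Grin1 was assembled at positions 25287840 to 25319163 of chromosome 2 (GRCm38). Its level was 138 FPKM in wild type and 56.7 FPKM in the knockdown, a log2 fold of -1.28 and a loss of 81.5 FPKM, more than that of any other called model. The other tables of the series put the same groups at 138 and 65.7 FPKM, a log2 fold of -1.07. Transcripts of the partner subunits stayed near their wild-type levels and were not called. Grin2a, which encodes the GluN2A subunit common in adult cortex, was at 12.1 FPKM in wild type and 11.7 FPKM in the knockdown. Grin2c was at 17.9 and 19.8 FPKM, Grin2d at 4.89 and 5.30 FPKM, and Grin3a at 8.24 and 7.44 FPKM. Grin2b and Grin3b had no tested model.

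Calls among other glutamate receptor genes were few, beside the 2.52% called over all tested models. Each was in a partner protein, but they are too few to set partners apart from channel subunits. Of 23 models of AMPA receptors and their auxiliary subunits 1 rose (4.35%), Cacng5, a protein of the TARP family that rides on AMPA receptors, from 5.30 to 8.82 FPKM. Among 12 kainate and delta receptor models the 2 that rose (16.7%) encode cerebellins, secreted proteins that link presynaptic neurexin to postsynaptic delta receptors: Cbln1 went from 2.59 to 5.40 FPKM and Cbln4 from 5.002 to 7.86 FPKM. The delta receptor gene Grid1 (17.96 and 17.18 FPKM) was not called. None of the 7 metabotropic glutamate receptors was called, with log2 folds from -0.17 for Grm3 to 0.20 for Grm4, and 1 had an unadjusted p under 0.05.

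Among the genes that carry the calcium signal onward the few calls were small falls, beside falls in 0.858% of all tested models. Of 20 models of CaM kinases, calmodulin, calcineurin and synaptic Ras regulators 3 fell and 0 rose, 18 folds were negative, and the median was -0.15. Camk4, a nuclear kinase that phosphorylates CREB, fell from 29.3 to 23.1 FPKM, and Camkk2, a kinase that switches on other CaM kinases, from 79.9 to 65.4 FPKM. Rasal1, a Ras GTPase-activating protein, fell from 28.95 to 23.04 FPKM. Camk2a, the abundant kinase of the postsynaptic density, was at 848 and 730 FPKM and the calcineurin subunit Ppp3ca at 366 and 310 FPKM, and neither was called; both were chosen after their values were seen. Scaffolds of the postsynaptic density had 0 calls among 15 models, 0 at an unadjusted p under 0.05, 12 negative folds and a median of -0.08. Dlg4, which encodes PSD-95, was at 214 and 205 FPKM. A second model of Shank2 with under 1 FPKM had a log2 fold of -1.51 without a call, while the main Shank2 model was at 29.2 and 28.8 FPKM.

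Transcription factors of the immediate early class, which neurons switch on within minutes of firing, had the highest share of called falls of the 68 gene lists. Of 26 models 8 fell and 1 rose, and the median was -0.15. Egr1 fell from 83.1 to 59.0 FPKM, Nr4a1 from 34.7 to 25.2 FPKM and Junb from 30.6 to 21.6 FPKM. Lower in level, Egr4 fell from 21.03 to 15.81 FPKM, Klf10 from 12.1 to 8.63 FPKM, Fos from 10.1 to 7.59 FPKM, Nr4a3 from 7.58 to 5.83 FPKM and Egr2 from 2.144 to 1.248 FPKM. All 8 folds lay between -0.38 and -0.78. The member that rose was Crem, a CREB-family regulator, from 7.01 to 9.26 FPKM; Crem, Egr4 and Nr4a3 were chosen after their values were seen. The effector genes that activity also induces split by direction, with 4 rises and 3 falls among 33 models and a median of -0.06. Arc, whose protein removes AMPA receptors from synapses, fell from 32.10 to 19.996 FPKM, Arl4d, a small GTPase, from 11.9 to 8.29 FPKM and the clock gene Per1 from 22.5 to 17.3 FPKM. Those that rose all encode secreted peptides or growth factors: Scg2 went from 93.1 to 156 FPKM, Vgf from 99.5 to 135 FPKM, Adcyap1 from 14.99 to 22.17 FPKM, and the larger of 2 Bdnf models from 7.36 to 9.18 FPKM. The smaller Bdnf model was at 4.32 and 4.28 FPKM. MAP kinase feedback genes, the phosphatases and Sprouty proteins that damp ERK signalling, had 0 calls among 18 models and a median of -0.03; at an unadjusted p under 0.05, 2 were higher and 3 lower.

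Promoters of activity-induced genes that moved in opposite directions are shown because they hold the site that CREB binds, or its core. Each runs from 150 bases before to 30 bases after the RefSeq start site on build GRCm38.p6, 5′ to 3′ on the gene's strand, and capitals mark the cAMP response element TGACGTCA, its core TGACG on either strand and, in Egr2, the CArG box bound by serum response factor. Fos, Egr2 and Arl4d fell. Scg2, Pcsk1 (prohormone convertase 1) and Sst (somatostatin) rose, and Pcsk1 and Sst, like the peptide lists searched, were picked after their values were seen.
Fos, chr12:85473740-85473919, plus strand: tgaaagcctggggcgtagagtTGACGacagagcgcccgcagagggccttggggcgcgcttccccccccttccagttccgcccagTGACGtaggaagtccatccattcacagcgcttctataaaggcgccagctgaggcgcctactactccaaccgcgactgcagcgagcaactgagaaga
Egr2, chr10:67537719-67537898, plus strand: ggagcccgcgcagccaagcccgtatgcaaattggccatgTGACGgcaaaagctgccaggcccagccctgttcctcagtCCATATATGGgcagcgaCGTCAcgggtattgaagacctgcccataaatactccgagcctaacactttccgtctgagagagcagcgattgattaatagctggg
Arl4d, chr11:101665391-101665570, plus strand: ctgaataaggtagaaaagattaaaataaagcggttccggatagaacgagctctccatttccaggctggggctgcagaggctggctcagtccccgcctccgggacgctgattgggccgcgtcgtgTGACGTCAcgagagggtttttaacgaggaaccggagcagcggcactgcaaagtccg
Scg2, chr1:79439997-79440176, minus strand: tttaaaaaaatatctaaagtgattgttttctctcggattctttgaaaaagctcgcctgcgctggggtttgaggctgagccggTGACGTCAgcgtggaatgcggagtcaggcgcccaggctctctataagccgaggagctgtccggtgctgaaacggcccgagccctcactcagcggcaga
Pcsk1, chr13:75089707-75089886, plus strand: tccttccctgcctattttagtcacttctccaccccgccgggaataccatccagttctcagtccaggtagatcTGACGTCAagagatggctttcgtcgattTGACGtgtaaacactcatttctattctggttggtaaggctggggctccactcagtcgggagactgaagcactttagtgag
Sst, chr16:23890815-23890994, minus strand: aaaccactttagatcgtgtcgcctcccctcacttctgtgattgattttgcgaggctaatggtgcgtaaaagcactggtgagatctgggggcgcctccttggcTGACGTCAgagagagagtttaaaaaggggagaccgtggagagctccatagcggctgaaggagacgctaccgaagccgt

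The whole element begins 26 bases before the start in Arl4d, 68 in Scg2, 78 in Pcsk1 and 48 in Sst, but these genes were shown because they hold it. Among the activity-induced effectors with a promoter in the RefSeq table it was found in 1 of 2 that fell and 1 of 3 that rose. It was found in 2 of 2 risen granin and processing genes, Scg2 among them again, and in 1 of 6 risen genes of the neuropeptide list. It occurs in 1.79% of the 32851 promoters of 300 bases in the RefSeq table, and its core TGACG, which the whole element contains, in 20.8%. The counts here take a gene as holding a motif when any of its promoters does. By that measure the shares of 27025 genes are 2.03% and 23%. Of the 8 immediate early transcription factors that fell 6 were found in that table, Egr2, Egr4, Fos, Junb, Nr4a1 and Nr4a3. All 6 hold the core and 0 hold the whole element. The CArG box, present in 1.63% of promoters and 1.81% of genes, was found in Egr2, where it begins 72 bases before the start shown. These matches describe the letters of the windows and say nothing of binding in these animals.

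On the presynaptic side calls were falls, beside falls in 0.858% of all tested models. Of 33 models of the core release machinery 5 fell and 0 rose, 28 folds were negative, and the median was -0.07. Complexins clamp and drive the fusion of vesicles: Cplx2 fell from 252 to 185 FPKM and Cplx3 from 4.59 to 2.98 FPKM, while Cplx1 was at 298 and 310 FPKM without a call. Stx1a, the plasma membrane SNARE syntaxin 1A, fell from 129 to 109 FPKM and Unc13c, a vesicle priming factor, from 3.73 to 2.82 FPKM. Slc17a8, the glutamate transporter VGLUT3, fell from 0.716 to 0.465 FPKM. Slc17a7, the transporter of cortical excitatory terminals, was at 626 and 598 FPKM and was not called; it was read as a tissue marker. Synaptic adhesion genes gave 2 falls and 0 rises among 31 models, both in neurexophilins, secreted ligands of neurexin: Nxph2 from 1.66 to 1.03 FPKM and Nxph3 from 13.1 to 10.2 FPKM.

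Called peptide genes were mostly higher, beside rises in 1.66% and falls in 0.858% of all tested models. The neuropeptide precursor list also holds genes that are not strictly such precursors, Igf1 and Ecel1 among them. Of its 27 models 8 rose and 1 fell, and 19 folds were positive. The median was 0.31, or 0.23 with 1 FPKM added to both levels. Trh (thyrotropin-releasing hormone) went from 2.92 to 8.61 FPKM and Crh (corticotropin-releasing hormone) from 4.28 to 10.46 FPKM. The abundant interneuron peptides changed less in fold and more in level, Npy from 119 to 186 FPKM and Sst from 342 to 452 FPKM. Igf1 rose from 2.01 to 2.73 FPKM, and Ecel1, an endopeptidase-like protein, and the merged model Nmb,Sec11a rose by 0.54 and 0.42 (both chosen after their values were seen). Grp (gastrin-releasing peptide) was the member that fell, from 5.36 to 3.55 FPKM. Granins and the enzymes that cut prohormones had 3 rises and 0 falls among 13 models: besides Scg2 and Vgf, the larger Pcsk1 model went from 14.0 to 16.7 FPKM. Pcsk2, the other convertase, was at 110 and 93.8 FPKM without a call, and Chga, the chromogranin A gene, at 88.0 and 92.4 FPKM. Among 33 peptide receptors Vipr2, a receptor for VIP and PACAP, rose from 0.729 to 1.96 FPKM and the somatostatin receptor Sstr1 fell from 13.0 to 10.7 FPKM. Neurotrophin genes gave the Bdnf rise and a fall of Ntf3 from 0.607 to 0.284 FPKM among 16 models.

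Models on the inhibitory neuron and GABA lists gave 17 rises and 0 falls among 91, beside rises in 1.66% of all tested models. Their folds as a whole were balanced, 47 positive and 44 negative, at a median of 0.02. In whole tissue, a change in the number of cells of a type and a change in RNA per cell cannot be told apart, in these lists and in those that follow. Of 12 models marking somatostatin and Npy interneurons 5 rose and 0 fell: Npy, Sst, Cbln4, Reln (reelin, 11.2 to 16.7 FPKM) and Crhbp (12.7 to 17.2 FPKM). All 5 stand outside the olfactory bulb and striatal lists, but absence from a list does not show which tissue the RNA came from. The other members, among them Nos1 (6.16 and 6.41 FPKM) and Chodl (0.407 and 0.404 FPKM), were not called, and the list median was 0.09. Of 13 parvalbumin interneuron models 0 were called (2 at an unadjusted p under 0.05, both lower), 10 folds were negative, and Pvalb was at 37.9 and 36.6 FPKM. In the list for Vip, Calb2 and neurogliaform cells 4 of 14 rose, Calb2 (18.4 to 46.9 FPKM), Crh, Reln and Sp8. Vip itself was at 26.8 and 26.2 FPKM, and without Calb2 and Sp8, which the bulb list also holds, 2 rises were left. Transcription factors of the interneuron lineage had 6 rises and 0 falls among 24 models: Sp8 (2.86 to 5.66 FPKM), Pbx3 (6.95 to 13.5 FPKM), Dlx1 (13.7 to 21.1 FPKM), Dlx2 (3.83 to 5.75 FPKM), Dlx5 (3.88 to 5.83 FPKM) and Sp9 (3.40 to 5.07 FPKM). The noncoding RNA listed there as Dlx6os1 was tested under an older symbol, Dlx6as1, and is not in the list counts. It rose from 9.60 to 14.8 FPKM (chosen after its values were seen). Of 19 models for GABA synthesis, transport and GABA-B receptors 4 rose and 0 fell. Gad1, the main cortical GABA-making enzyme, went from 120 to 151 FPKM and Gad2 from 38.6 to 45.9 FPKM. Both transporters that rose are found mainly outside neurons, Slc6a11 (GAT-3, 44.4 to 58.3 FPKM) in astrocytes and Slc6a13 (GAT-2, 4.62 to 5.97 FPKM) in the meninges. GABA-A receptor subunits had 0 calls among 14 models, with log2 folds from -0.22 to 0.09 and 1 at an unadjusted p under 0.05.

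**Figure D2:**
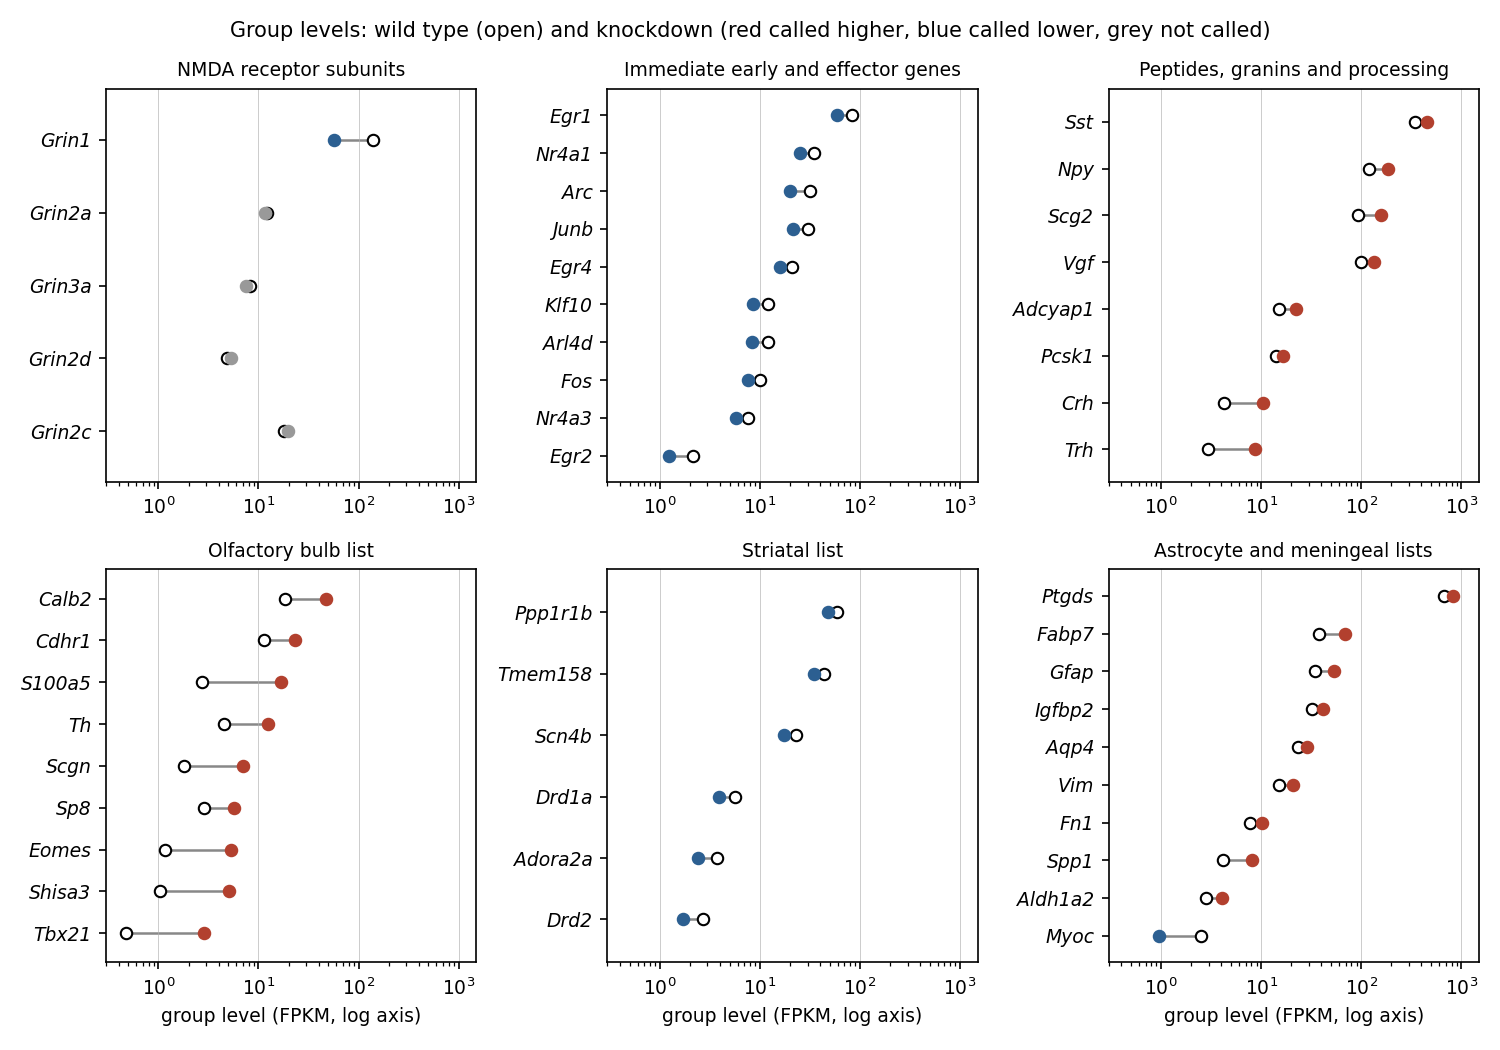
Group level (FPKM, log axis) of named genes in wild type (open circles) and knockdown (filled; red called higher, blue called lower, grey not called), each circle the authors' pooled value of 4 mice. Immediate early genes shift left by like distances, bulb genes such as S100a5 (2.71 to 16.8 FPKM) shift right by far more, and Sst (342 to 452 FPKM) moves little on this axis.

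Markers of neighbouring regions moved in the same libraries. Of 21 olfactory bulb models 12 rose and 0 fell, the median was 1.15, and their summed level went from 137 to 253 FPKM. Like the other lists, this one was chosen with earlier results of these data known, so its share of calls is a description only. S100a5, a calcium-binding protein of olfactory neurons, went from 2.71 to 16.8 FPKM, Shisa3 from 1.04 to 5.13 FPKM, Eomes (larger of 2 models), a factor of mitral and tufted cells, from 1.17 to 5.35 FPKM, Tbx21 from 0.474 to 2.83 FPKM and Scgn (secretagogin) from 1.81 to 7.03 FPKM. Th (tyrosine hydroxylase) rose from 4.52 to 12.5 FPKM, Cdhr1 from 11.2 to 23.1 FPKM, and the other called members were Calb2, Sp8, Trh, Islr and the merged model Doc2g,Nudt8, the last 2 chosen after their values were seen. Omp, the marker of olfactory sensory axons, was at 1.06 and 3.97 FPKM without a call. Neuroblast and cell division genes gave 5 rises and 0 falls among 25 models: Dlx1, Dlx2, Cd24a (3.89 to 5.61 FPKM), Dcx (doublecortin, 7.43 to 9.76 FPKM) and Igfbpl1 (0.764 to 1.38 FPKM). Striatal markers moved down, with 7 falls among 30 models and a summed level of 608 and 559 FPKM. Drd1a, a dopamine receptor, fell from 5.64 to 3.95 FPKM, Adora2a from 3.74 to 2.43 FPKM, Drd2 from 2.70 to 1.71 FPKM, Scn4b (larger of 2 models) from 23.01 to 17.66 FPKM, Ppp1r1b (DARPP-32) from 58.6 to 48.3 FPKM and Tmem158, chosen after its values were seen, from 43.6 to 34.5 FPKM. The 2 rises of the striatal list were models of the same gene, Syt6 (8.08 to 11.4 FPKM and 0.410 to 0.720 FPKM). The enkephalin gene Penk, another striatal marker, was at 52.7 and 51.3 FPKM (chosen after its values were seen). All models of the bulb and striatal lists were also left out, an alternative added after seeing the data. Then 7 of 23 models of the neuropeptide list and 5 of 23 interneuron transcription factors were called higher. Genes on neither list may be expressed in those regions too, so these counts cannot show the part of neighbouring tissue. That part in the peptide and interneuron results was not tested.

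Of 14 hippocampal models Dock10 rose (4.67 to 5.92 FPKM) and Grp fell, 14.3% of the list, and of 18 thalamic and hypothalamic models Zic1 (6.87 to 9.98 FPKM) and Ntng1 (4.55 to 6.65 FPKM) rose and Cplx3 fell, 16.7%. Pituitary hormones had 0 calls among 3 models and 0 at an unadjusted p under 0.05, and Gh (growth hormone) was at 0.0145 and 0.865 FPKM.

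Markers of the excitatory cortical layers gave calls in both directions. Of 33 deep-layer models 5 fell and 2 rose, and 22 folds were negative. Crym fell from 64.7 to 45.9 FPKM, Rprm from 45.2 to 36.0 FPKM, Fezf2, which specifies neurons projecting below the cortex, from 12.6 to 9.40 FPKM, Cplx3, a marker of the deepest layer, as given above, and Hs3st4, chosen after its values were seen, from 23.27 to 19.02 FPKM. Both rises were again Syt6. The 24 upper-layer models had 2 rises, Mdga1 (3.48 to 5.81 FPKM) and Plcxd2 (17.4 to 22.6 FPKM), and 1 fall, Otof (3.84 to 2.51 FPKM), with 11 positive folds.

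**Figure D3:**
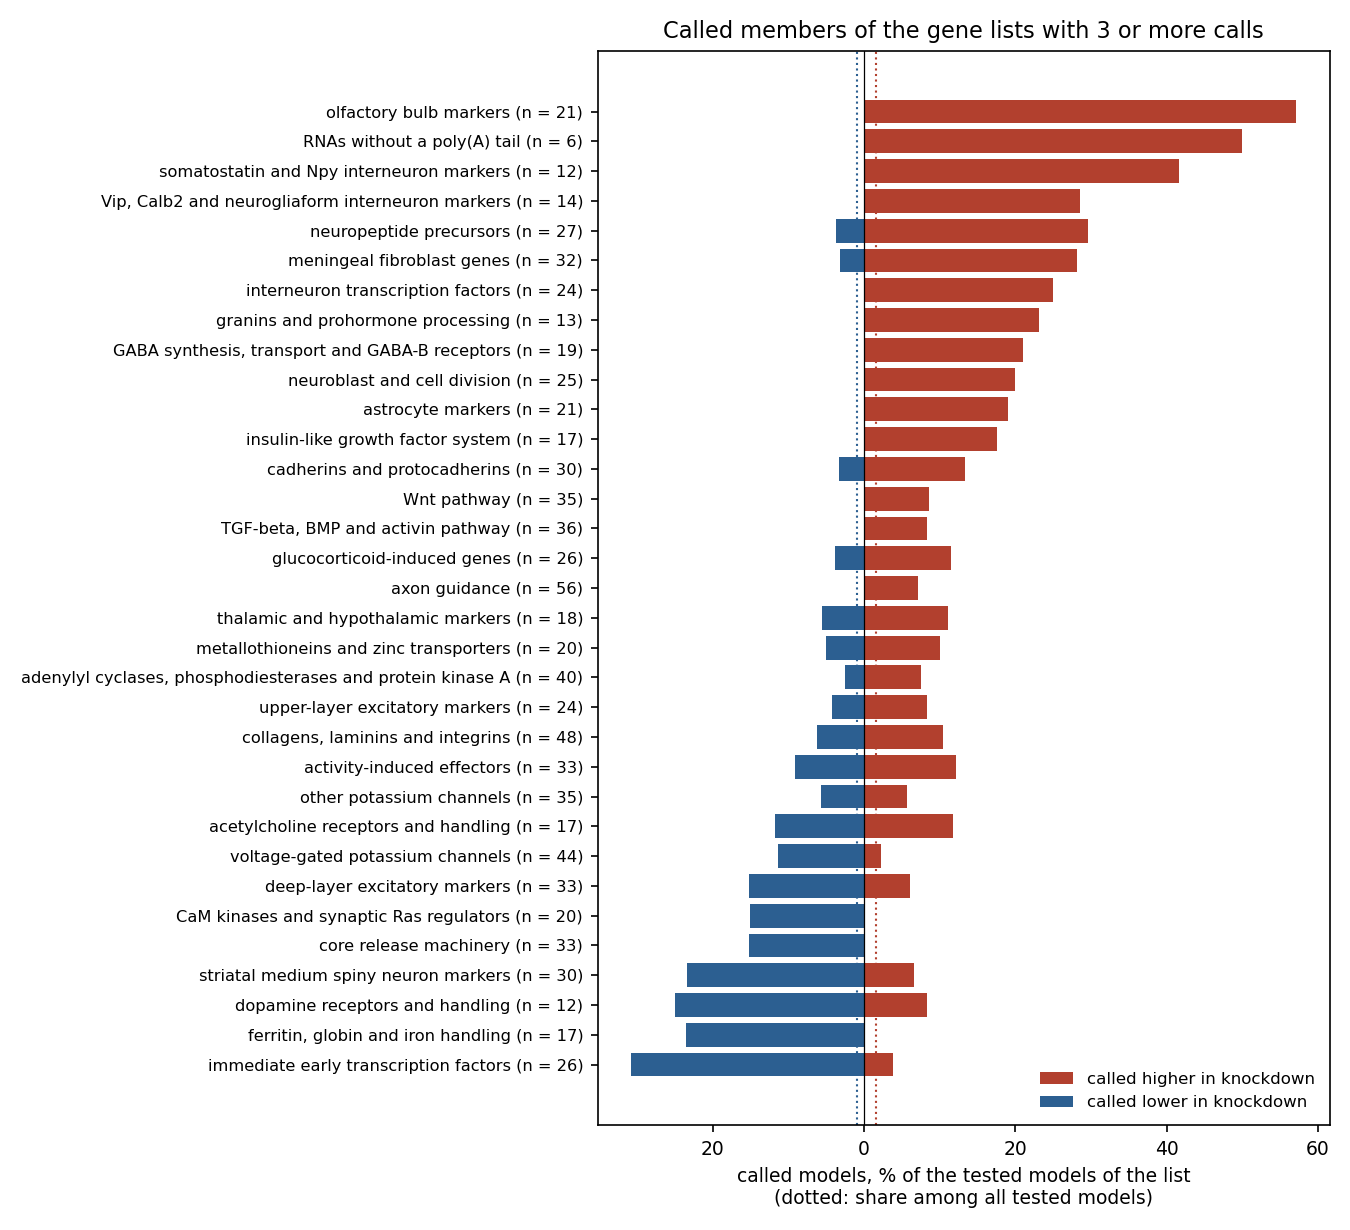
Share of the tested models of a list that was called higher (red, to the right) or lower (blue, to the left) in the knockdown, for the 33 lists with 3 or more calls; dotted lines give the shares among all tested models, 1.66% and 0.858%. The bulb list, the 6 RNAs without a poly(A) tail and the somatostatin and Npy interneuron list stand at the top, and immediate early transcription factors at the bottom. Lists were chosen with earlier results of these data known.

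Receptors for the slower transmitters gave calls in both directions. Of 60 monoamine and acetylcholine models 7 fell and 3 rose, and 44 folds were negative. Dopamine genes gave the falls of Drd1a, Drd2 and Ppp1r1b and the rise of Th, and each of these 4 is also on the striatal or bulb list, as is the fall of Adora2a. Without the models of those lists 3 falls and 2 rises were left among 55. The dopamine transporter gene Slc6a3 was at 0.335 and 0.596 FPKM without a call. Serotonin receptors had 0 calls among 14 models, 3 at an unadjusted p under 0.05, and 11 negative folds. Adrb1, the beta-1 adrenergic receptor, fell from 16.8 to 13.0 FPKM. In the acetylcholine list Lypd1, a membrane-bound brake on nicotinic receptors, fell from 32.1 to 21.9 FPKM and Chrnb3 from 0.611 to 0.312 FPKM, while Chrnb4 rose from 0.169 to 0.577 FPKM and the muscarinic receptor Chrm2 from 4.12 to 5.25 FPKM.

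Falls among potassium channels were small. Of 44 voltage-gated potassium channel models 5 fell and 1 rose, and 31 folds were negative. Kcnq3 (23.1 to 18.7 FPKM) and Kcnq5 (20.1 to 16.3 FPKM) encode subunits of the M current that limits repetitive firing, and Kcnh3 (50.02 to 41.51 FPKM), Kcnv1 (31.4 to 25.3 FPKM) and Kcnab1 (28.9 to 24.1 FPKM) fell too. None of these 5 falls reached a log2 size of 0.32. Kcnab3, another beta subunit, rose from 18.9 to 23.5 FPKM. Among 35 other potassium channel models Kcnk15 rose from 0.525 to 2.11 FPKM and the astrocyte channel Kcnj10 (Kir4.1) from 39.4 to 47.4 FPKM, while Kcnk2 (TREK-1) fell from 18.19 to 15.05 FPKM and Kcnmb4 from 76.0 to 63.4 FPKM. Sodium, calcium and HCN channels gave the Scn4b fall and a rise of Hcn4 from 1.64 to 2.23 FPKM among 29 models; in the other tables the log2 fold of Hcn4 was 0.09 in place of 0.45.

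Calls among intracellular and secreted signalling genes were mostly rises, 13 against 1 fall among 168 models. Their folds as a whole were balanced, 85 positive and 83 negative. Over all tested models 1.66% rose and 0.858% fell. RGS proteins and G protein subunits had 1 call among 40 models, 2.5%, near the 2.52% of all tested models. It was Gng4, a gamma subunit, which rose from 22.0 to 36.8 FPKM, although 32 folds of the list were negative. In the cAMP list of 40 models the phosphodiesterases Pde3a (0.346 to 0.610 FPKM) and Pde1c (1.33 to 1.80 FPKM) and the calcium-stimulated cyclase Adcy8 (4.94 to 6.69 FPKM) rose, and Ppp1r1b fell. Wnt pathway genes had 3 rises and 0 falls among 35 models: the R-spondin receptors Lgr5 (2.62 to 6.05 FPKM) and Lgr6 (1.58 to 3.87 FPKM) and the secreted inhibitor Wif1 (0.516 to 0.969 FPKM). In the TGF-beta, BMP and activin list 3 of 36 rose, 0 fell and 28 folds were positive. Fst (follistatin), which traps activin, went from 0.978 to 2.24 FPKM, Grem1 (gremlin), which traps BMPs, from 0.410 to 0.899 FPKM and Gdf10 from 2.18 to 3.55 FPKM. The insulin-like growth factor list added Igfbp2 (32.1 to 41.7 FPKM) to Igf1 and Igfbpl1, 3 rises and 0 falls among 17 models.

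Astrocyte markers lay higher almost without exception: 20 of 21 folds were positive, the median was 0.17, 4 rose and 0 fell. Fabp7, a fatty acid binding protein of radial glia and astrocytes, rose from 37.5 to 69.4 FPKM, Gfap from 34.6 to 54.0 FPKM, Vim (vimentin) from 15.1 to 20.6 FPKM and the water channel Aqp4 from 23.5 to 28.8 FPKM. The glutamate transporter gene of astrocytes, Slc1a2, was at 334 and 340 FPKM, and Glul (glutamine synthetase) at 572 and 638 FPKM, both without a call and chosen after their values were seen. Of 23 myelin models Opalin fell, from 6.57 to 4.73 FPKM, at a list median of 0.02. Oligodendrocyte precursor genes had 0 calls among 16 models with 13 positive folds, microglia and complement genes 0 among 22, and interferon-induced and MHC class I genes 0 among 26. Each of these 3 lists had 1 model at an unadjusted p under 0.05.

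Vessel-associated and meningeal genes lay higher as well, with 73 of 93 folds positive. Of 32 meningeal fibroblast models 9 rose and 1 fell, the median was 0.29, and the summed level went from 876 to 1071 FPKM. Most of that gain was in 1 gene, Ptgds, the prostaglandin D synthase of the meninges, which rose from 670 to 825 FPKM. Its model lies near Grin1, at 25466712 to 25470099 of chromosome 2, and any part of that position was not tested. Spp1 (osteopontin) rose from 4.20 to 8.17 FPKM, Fn1 (fibronectin) from 7.78 to 10.2 FPKM and Aldh1a2, a retinoic acid synthase, from 2.85 to 4.07 FPKM. Col1a1 rose from 1.71 to 2.38 FPKM and Col3a1 from 0.484 to 0.744 FPKM. Igfbp2, Slc6a13 and Vtn (vitronectin, 24.4 to 29.7 FPKM) were the other rises. Myoc (myocilin) was the member that fell, from 2.49 to 0.961 FPKM. Pericyte and smooth muscle genes had 19 of 20 folds positive and 1 call, Vtn. Of 24 brain endothelial models Ly6a rose (16.4 to 21.3 FPKM) and Gkn3, an arterial marker, fell (1.91 to 0.845 FPKM). In the choroid plexus and ependymal list Aqp1 rose from 0.825 to 2.22 FPKM and Vwa3a fell from 2.74 to 1.67 FPKM, a log2 fold of -0.72 that was -1.16 in the other tables; Ttr, the defining choroid plexus gene, had no tested model. Haemoglobin transcripts gave 1 rise among 9 models, a merged Hba-a1,Hba-a2 model (23.1 to 30.1 FPKM) that shares reads between near-identical genes.

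**Figure D4:**
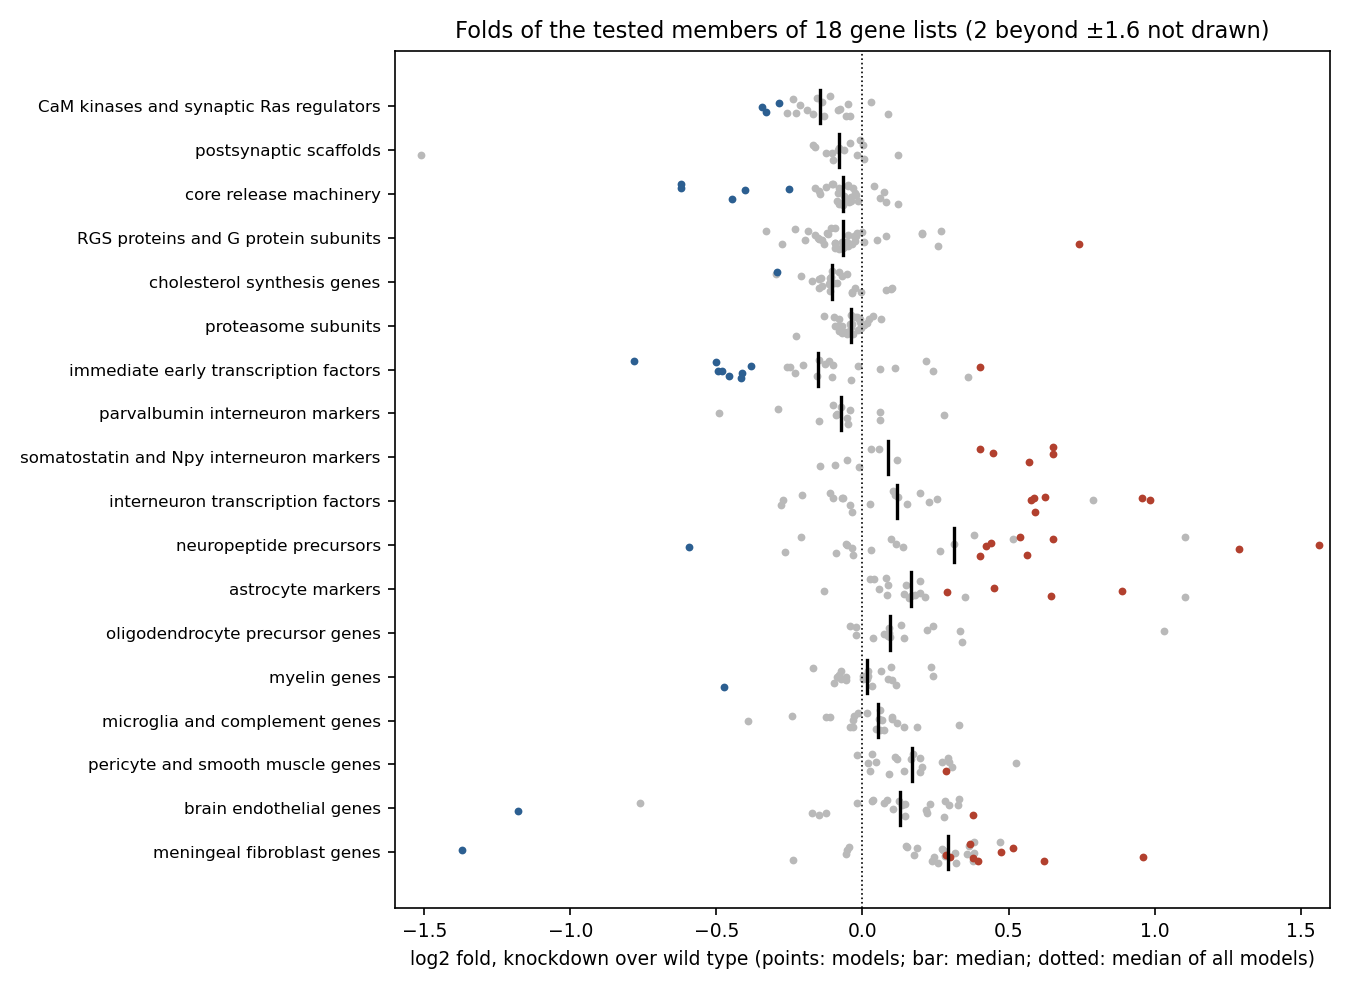
Log2 fold of every tested member of 18 lists (points; red called higher, blue called lower, grey not called) with the list's median (bar) and the median of all models (dotted line); 2 members beyond 1.6 in size are not drawn. Astrocyte and pericyte points lie almost all to the right of the dotted line, CaM kinase and cholesterol points to the left, and calls are few in both.

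The metallothionein genes Mt1 and Mt2 rose. Metallothioneins are small cysteine-rich proteins that bind zinc and are induced by zinc and by glucocorticoids. Levels went from 408 to 494 FPKM for Mt1 and from 259 to 358 FPKM for Mt2, and in the same list of 20 models Slc30a3 (ZnT3), which loads zinc into glutamatergic vesicles, fell from 72.2 to 59.1 FPKM. Their RefSeq promoters are shown from 250 bases before to 30 bases after the start, GRCm38.p6, with capitals on the metal response element core, TGCGCNC or TGCACNC on either strand, since zinc acts on both genes through this element.
Mt1, chr8:94178839-94179118, plus strand: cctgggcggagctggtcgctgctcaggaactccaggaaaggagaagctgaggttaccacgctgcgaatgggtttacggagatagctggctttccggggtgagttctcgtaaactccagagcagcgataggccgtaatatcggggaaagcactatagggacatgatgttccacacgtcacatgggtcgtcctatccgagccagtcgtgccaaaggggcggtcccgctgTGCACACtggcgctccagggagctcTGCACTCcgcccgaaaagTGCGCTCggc
Mt2, chr8:94172368-94172647, plus strand: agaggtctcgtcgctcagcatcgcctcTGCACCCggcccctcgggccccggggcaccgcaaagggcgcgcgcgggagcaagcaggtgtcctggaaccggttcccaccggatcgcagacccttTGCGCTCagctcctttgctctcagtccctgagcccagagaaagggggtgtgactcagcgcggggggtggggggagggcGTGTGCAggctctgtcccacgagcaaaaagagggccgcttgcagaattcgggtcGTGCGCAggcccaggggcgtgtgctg

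The Mt1 window holds 3 matches and the Mt2 window 4, and 25.7% of the RefSeq promoters hold at least 1. Of 26 glucocorticoid-induced models 3 rose and 1 fell, at a median of 0.15 that was 0.01 among models with a mean of at least 1 FPKM. Besides the metallothioneins, Cdkn1a, a cell cycle inhibitor, rose from 12.7 to 16.2 FPKM, and Per1 fell. No other model of the 23 on the circadian clock list was called.

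The list of ferritin, neuroglobin, cytoglobin and iron handling genes gave 4 falls and 0 rises among 17 models. Ftl1, the ferritin light chain, went from 93.5 to 55.3 FPKM; it has near-identical pseudogene copies, and an unnamed model over one of them, Ftl1-ps1, fell from 33.5 to 20.2 FPKM. Cygb (cytoglobin) fell from 18.80 to 14.99 FPKM, Ngb (neuroglobin) from 1.70 to 1.09 FPKM and Tfrc, the transferrin receptor, from 29.0 to 24.2 FPKM. Of 23 endoplasmic reticulum chaperone models Hspa5 (BiP) rose from 103 to 126 FPKM, and 19 folds were positive. Cholesterol synthesis genes had 23 of 26 folds negative, a median of -0.11 and 1 fall, with q above 0.05. The glycolysis list of 25 models gave 1 rise, Pgk1 from 37.53 to 55.002 FPKM; in the other tables its log2 fold was 1.54 in place of 0.55. Heat shock genes (20 models), ribosomal proteins (79), nuclear oxidative phosphorylation genes (77) and proteasome subunits (31) had 0 calls each, while the 31 proteasome folds included 26 negative ones. At an unadjusted p under 0.05 the counts were 2 heat shock genes, 1 ribosomal protein gene and 0 in the last pair of lists.

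Matrix and adhesion genes moved in both directions, beside rises in 1.66% and falls in 0.858% of all tested models. Of 48 collagen, laminin and integrin models 5 rose and 3 fell. Col24a1 rose from 1.70 to 2.61 FPKM and Lama3 from 0.764 to 1.04 FPKM, and Col19a1 fell from 5.50 to 4.51 FPKM. Counted above 1 FPKM, 3 of the 5 rises were left. Acan, the aggrecan core of perineuronal nets, rose from 0.449 to 1.05 FPKM, and Timp3, a protease inhibitor, from 23.4 to 29.9 FPKM, among 29 perineuronal net models with 0 falls. Of 30 cadherin models Pcdh15 (2.60 to 3.39 FPKM), Pcdh20 (5.04 to 7.04 FPKM), Cdh20 (5.16 to 6.33 FPKM) and Cdhr1 rose and Pcdh19 fell (9.11 to 7.38 FPKM). Axon guidance genes had 4 rises and 0 falls among 56 models, the ephrin receptor Epha3 (2.36 to 3.11 FPKM), Ntng1 and the semaphorins Sema3c (7.54 to 9.02 FPKM) and Sema3d (1.79 to 2.39 FPKM).

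Of the 464 called models 161 are on a list and 303 on none. Among the largest rises off the lists were Ms4a15 (1.84 to 7.21 FPKM), Ush1g, a hair cell scaffold (0.360 to 1.64 FPKM), the phosphatase Ppm1j (0.738 to 2.36 FPKM), A230065H16Rik (1.48 to 4.07 FPKM), Rab37 (1.05 to 2.59 FPKM), Plb1 (0.600 to 1.40 FPKM), the transcription factor Sp7 (0.951 to 2.21 FPKM) and Otop2, a proton channel (1.15 to 2.56 FPKM). Ush1g and Otop2 have the same assembled locus, as do Ppm1j and another called rise, Fam19a3. Sharing of reads within these loci was not tested. Falls off the lists were ranked among models of 1 symbol with a mean of at least 1 FPKM. The largest of these were Tnnc1, the slow muscle troponin C (24.9 to 14.6 FPKM), Zfp189 (3.35 to 2.16 FPKM) and Adam33 (2.38 to 1.57 FPKM). Foxo6, a forkhead factor of neurons (6.21 to 4.23 FPKM), Fam103a1 (26.0 to 17.8 FPKM) and the predicted genes Gm10635 (1.52 to 1.01 FPKM) and Gm10754 (2.07 to 1.37 FPKM) followed. Outside that ranking, the merged model Snhg7,Snora17,Snora43, chosen after its values were seen, fell further, from 11.9 to 4.86 FPKM. So did some models without a symbol or below 1 FPKM. Among abundant models, Hpca (hippocalcin), a neuronal calcium sensor, fell from 348 to 277 FPKM and Slc8a2, the sodium-calcium exchanger NCX2, from 111 to 90.5 FPKM, and Dbi, the diazepam binding inhibitor, rose from 118 to 146 FPKM. The largest gains in level were in 1 of 2 models each of 2610528E23Rik (1226 to 2154 FPKM) and of the ribosomal precursor Rn45s (618 to 1087 FPKM).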

How the data were processed

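Libraries were made from the polyadenylated RNA of frozen frontal cortex, per the labels' protocols. Builds named in the submitters' processing notes are GRCm38 and mm10, and the tools are TopHat2 2.1.0 and TopHat, Cuffdiff 2.2.1.3, Cufflinks 2.2.1.0 and FastQC 0.65. For each pairing of groups, 3 in all, a Cuffdiff table was deposited, which per the file headers holds, for every assembled gene model, the status, an FPKM value per group, a log2 fold, a p-value and a q-value. The authors' FPKM pools the libraries of a group and divides by transcript length, so models can be compared in level, and the p-value comes from the authors' test on values that the table does not show.

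The table of knockdown against wild type was used, with the other tables read only to set the levels of the same groups side by side. Log2 folds were recomputed from the deposited FPKM values; a model listed at 0 in a group got no fold. Calls used p under 0.05 with q under 0.10, the threshold that the series' design states. Each of 68 gene lists was described by its tested models, calls and median fold; every model of a gene counts, and many genes stand on several lists. GENCODE M21 held 13247 of the 14512 tested models that carry 1 symbol. Members and lists were chosen with earlier results of these data known. The text names the NMDA receptor subunits, the called models of 1 symbol and a mean of at least 1 FPKM with the 25 highest and the 25 lowest folds, the 12 most abundant called models, the 8 largest gains and 8 largest losses in FPKM, up to 6 called members of a list by smallest q, and members of lists of at most 15 models. Genes outside that rule were chosen after their values were seen, or are tissue markers. Some genes that the rule names are not reported here; they stay in the counts.

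Motifs were searched on both strands of RefSeq promoters, 250 bases before to 50 after each start. Alternatives were a q under 0.05, a mean of at least 1 FPKM, models with a single symbol, a log2 fold of at least 0.32 in size, folds centred on their median, a pseudocount of 1 FPKM and the levels of the other tables. The authors' p-values rest on 4 libraries a group. Counting code was tested on simulated data. Python 3.11.15, pandas 2.3.3 and numpy 2.4.6 were used.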

Additional observations from a re-analysis of the deposited data

How the results depend on the processing

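No paired analysis was possible because the deposited tables hold 1 pooled value per group, so neither a left-out animal nor a block by replicate number could be computed. Grin1 had a log2 fold of -1.07 with the levels of the other 2 tables, which were assembled and normalised separately; the cause was not tested. With a mean of at least 1 FPKM the collagen, laminin and integrin list had 3 rises in place of 5, fewer models being counted, and the median of the choroid plexus list turned from -0.06 to 0.12. At a log2 size of at least 0.32 the voltage-gated potassium channel list had 0 falls in place of 5. The counts of called rises and falls over all models stayed within 1.5 times of 306 and 158 under every alternative run, as did the other list counts of 5 or more, which included those without bulb and striatal models. At q under 0.05, 13 smaller list counts, each of 4 or fewer, fell by more than 1.5 times, among them the 4 GABA synthesis and transport rises and the 4 ferritin and iron handling falls, each to 2. The other tables hold the same groups; of 379 called models matched there, 12 had a log2 fold that differed by over 0.3, and 1, Sall3, turned its direction. Depth is unknown, and 7 models were listed at 0 in a group.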

Other observations

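Called models without a symbol gave 20 rises and 20 falls among 3386 tested, and 31 of these 40 lie over a gene of GENCODE M21. The 3 called models listed at 0 in the knockdown are among them. XLOC_022367, over an immunoglobulin kappa variable gene on chromosome 6 (68939576 to 68940061), was at 0.681 FPKM in wild type. XLOC_026103 and XLOC_026108 lie over Snhg14 on chromosome 7, a long noncoding host of small nucleolar RNAs, and were at 1.68 and 0.679 FPKM in wild type. A neighbouring model over Snhg14, XLOC_026097, went from 1.28 to 0.145 FPKM. XLOC_022368, which spans the kappa constant gene Igkc and its joining segments, fell from 3.40 to 1.26 FPKM. A model over a long intergenic RNA, 1700120G11Rik on chromosome 4, fell from 1.997 to 0.681 FPKM.

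RNAs that carry no poly(A) tail stood out in libraries made from polyadenylated RNA. Of 6 tested models 3 rose, 0 fell and all 6 folds were positive. Rmrp went from 1.43 to 9.32 FPKM, Rpph1 from 1.24 to 7.31 FPKM and the larger Rn45s model from 618 to 1087 FPKM, and the smaller Rn45s model was at 114 and 227 FPKM without a call. The part of RNA selection in these values was not tested. Of 21 long noncoding RNA models 1 was called, Miat, from 84.8 to 71.0 FPKM, and 16 folds were negative. That count leaves out Dlx6as1, an older symbol of the listed Dlx6os1, which rose from 9.60 to 14.8 FPKM. By class, 384 of 12729 protein-coding models were called, 260 higher and 124 lower, and 6 of 132 long intergenic models, 1 higher and 5 lower.

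Over the autosomes and the X chromosome, the called share ran from 1.34% on chromosome 19 to 4.50% on chromosome 18, with 2.83% on chromosome 2, which carries Grin1. Of 617 genes with several tested models 23 had a called model, and Syt6 was the gene with more than 1. In 6 of the 617, Bdnf among them, a called model and another model of the gene had folds of opposite sign.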
